A study of Mus musculus with 2 samples.

Results

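The 59 genes described here encode the chemokines and chemokine receptors of the mouse, read out in whole stomach. They were chosen by name alone, as the protein-coding genes present in both deposited gene tables whose symbol is a Ccl, Ccr, Cxcl or Cxcr followed by a number, together with Cx3cl1, Cx3cr1, Xcl1, Xcr1 and the 4 atypical receptors Ackr1 to Ackr4. They are 59 of 21474 protein-coding genes and of 43346 mouse genes in the tables, and comprise 37 ligands and 22 receptors. Polyadenylated RNA was sequenced in strand-specific read pairs from the stomach of C57BL/6J mice, a common inbred strain, at 8 weeks of age, with no treatment or mutation named. The only group is stomach, with biological replicates 1 and 2, each a pool of both sexes from littermates, and both carry the same donor record. The SD given below is therefore the spread between these libraries, and how far they are independent animals is not known. No other group exists to set the stomach against, so every comparison is between genes or between the libraries.

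Chemokines are small secreted proteins that guide migrating cells. They bind receptors with 7 membrane spans that signal through inhibitory G proteins, and they are sorted into CC, CXC, CX3C and XC classes by the spacing of cysteines near the start of the mature protein. Homeostatic members position cells in resting tissue, inflammatory members are induced by injury or infection, and atypical receptors bind chemokines without G protein signalling and take them up or move them. In mucosal tissue such as the stomach they are made by epithelium, stroma, vessels and resident immune cells.

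The class is visible in the coding sequence. In GENCODE M21 transcripts on mm10, searched from codon 19 onward, the cysteine codons that mark the class were adjacent in the 23 CC ligands. They had 1 codon between them in the 12 CXC ligands and 3 in Cx3cl1. These spaced codons began at the first cysteine codon found in 31 ligands, and at the second in Ccl20, Ccl26, Ccl27a, Cxcl15 and Cx3cl1. For Xcl1 no spacing was searched: its first cysteine codon was taken because of its class, and its window below holds no other. The windows of 39 bases below show 1 abundant member for each class, the abundant mucosal ligand Cxcl17 and the XC ligand, with the cysteine codons in capitals and read on the coding strand. Cxcl12 lies at chr6:117168535-117181367 (plus strand), Cxcl17 at chr7:25400053-25412886 (minus), Ccl21a at chr4:42772860-42773993 (minus), Cx3cl1 at chr8:94772009-94782427 (plus) and Xcl1 at chr1:164931644-164935527 (minus).
Cxcl12: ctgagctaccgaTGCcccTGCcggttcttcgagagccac
Cxcl17: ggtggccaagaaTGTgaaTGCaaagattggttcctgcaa
Ccl21a: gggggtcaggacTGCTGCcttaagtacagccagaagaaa
Cx3cl1: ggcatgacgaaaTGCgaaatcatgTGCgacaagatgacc
Xcl1: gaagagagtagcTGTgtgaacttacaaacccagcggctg

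A few homeostatic ligands and 1 scavenging receptor carried most of the family's RNA, and most receptors were barely detected. Levels are in TPM, a share of all transcripts of a library that is corrected for transcript length, so that levels of different genes can be set side by side. The members summed to 346.9 TPM in replicate 1 and 319.8 TPM in replicate 2, and took 0.0549% and 0.0503% of 51633637 and 61635982 mouse read pairs. Cxcl12 alone held 21.5% ± 0.880 of that sum (SD, n = 2), the top 5 genes held 63.9% ± 2.07 and the top 10 held 85.1% ± 0.0342. Ligands held 85.0% and receptors 15.0%. In all, 16 members reached a TPM of 1 in both libraries, against 48.9% of all protein-coding genes: 12 of 37 ligands, 2 of 4 atypical receptors and 2 of 18 conventional receptors. The median over all 59 members was 0.595 TPM, against 1.15 TPM over all protein-coding genes. A further 9 members reached TPM 1 in only 1 library, 3 of them in replicate 1 and 6 in replicate 2, and 34 stayed below it in both. In whole tissue, fewer cells of a type and less RNA per cell cannot be told apart.

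**Figure D1:**
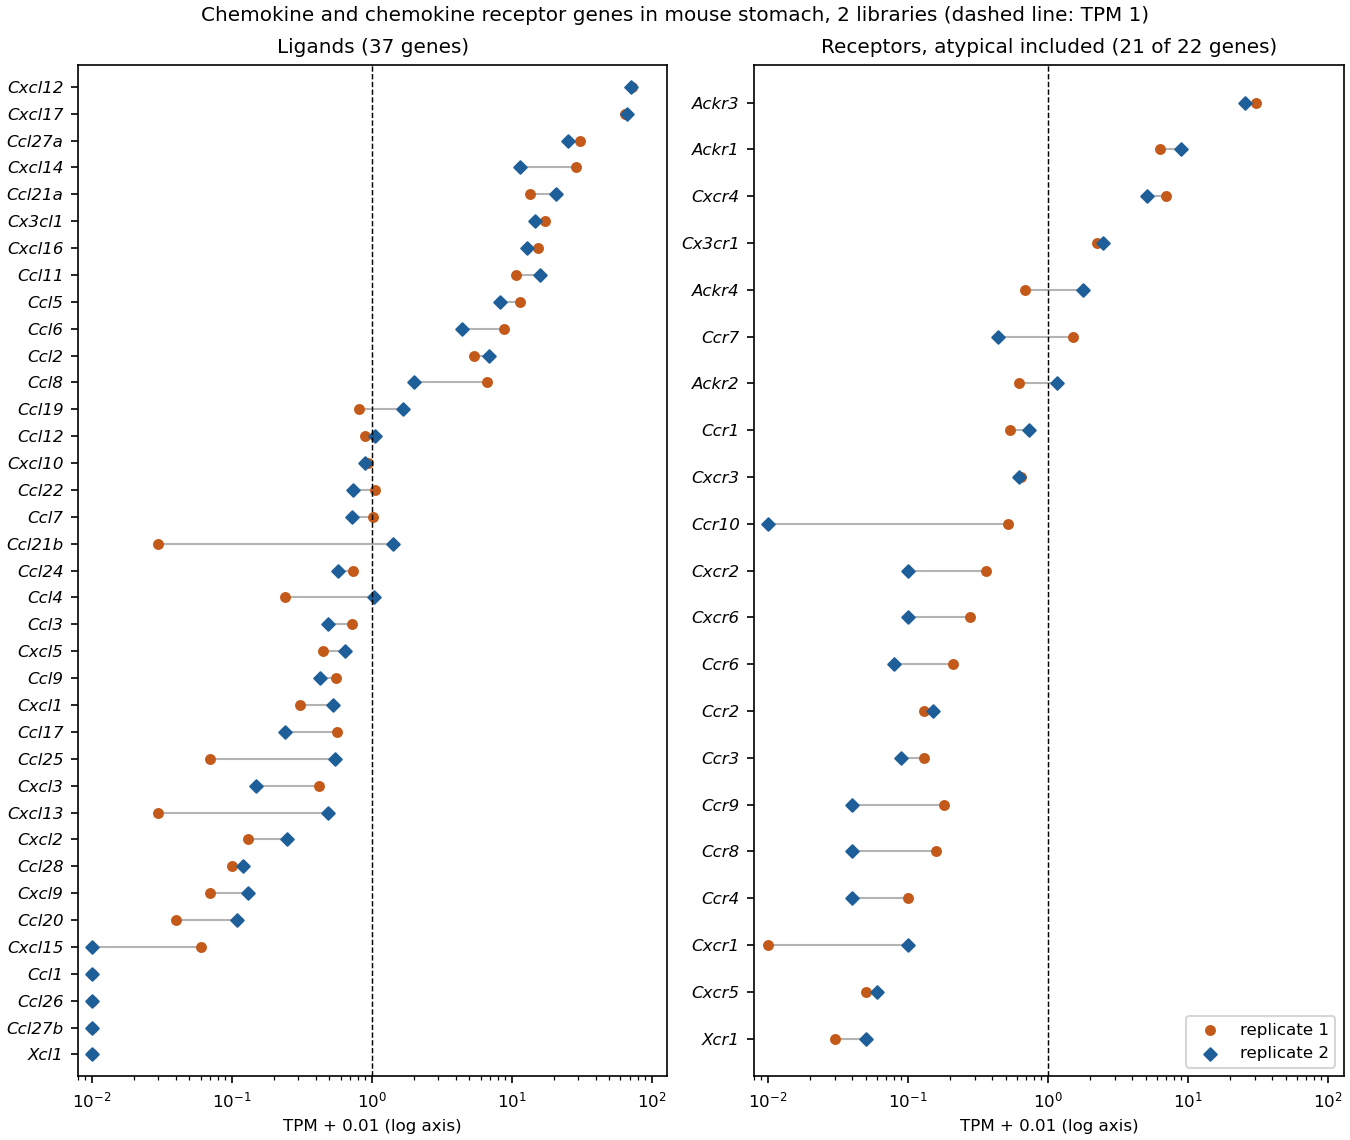
TPM of 37 ligands (left) and 21 of the 22 receptors (right) in replicate 1 (circles) and replicate 2 (diamonds), on a log axis after adding 0.01 for display. The dashed line marks TPM 1, which 12 ligands and 4 receptors exceeded in both libraries, and points at the left edge are genes with no reads.

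Among the CXC ligands, 4 of 12 reached TPM 1 in both libraries. Cxcl12, the stromal ligand that retains and positions progenitors and leukocytes, had 72.5 TPM in replicate 1 and 70.8 TPM in replicate 2, from 8425 and 10410 expected read pairs. Cxcl17, a chemokine of mucosal epithelia, had 64.4 and 66.6 TPM from 2069 and 2605 read pairs. The ranges of these leading ligands did not overlap, so Cxcl12 ranked above Cxcl17 in both libraries. Cxcl14, a ligand made by many epithelia (chr13:56288643-56296551), had 28.8 TPM in replicate 1 and 11.4 TPM in replicate 2, the widest gap in TPM among the 16 members at TPM 1. Cxcl16, a membrane-anchored ligand that can be shed and that binds Cxcr6 (chr11:70453983-70459984), had 15.4 and 12.8 TPM. The other 8 CXC ligands averaged between 0.025 TPM (Cxcl15) and 0.905 TPM (Cxcl10). They include the neutrophil-attracting ligands Cxcl1, Cxcl2, Cxcl3 and Cxcl5, at mean levels of 0.41, 0.18, 0.275 and 0.54 TPM, and the interferon-induced ligands Cxcl9 and Cxcl10.

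Of the CC ligands, 7 of 23 reached TPM 1 in both libraries. Ccl27a, a ligand of Ccr10 best known from skin (chr4:41769467-41774247), had 30.7 TPM in replicate 1 and 25.3 TPM in replicate 2, although much of this lay on transcripts annotated as noncoding (below). Ccl21a, a ligand of Ccr7 made by lymphatic and lymphoid stroma, had 13.5 and 20.8 TPM. Ccl11, or eotaxin, which draws eosinophils through Ccr3 (chr11:82057823-82062955), had 10.7 and 15.9 TPM. Both were higher in replicate 2. Ccl5, a T cell and NK cell product whose receptors include Ccr1 and Ccr3 (chr11:83525778-83530518), had 11.5 and 8.21 TPM. Ccl6, a rodent chemokine of myeloid cells (chr11:83587882-83593087), had 8.83 and 4.39 TPM, most of it on a transcript annotated as a retained intron (below). Ccl2, the monocyte attractant that binds Ccr2 (chr11:82035571-82037453), had 5.41 and 6.91 TPM. Ccl8, which in the mouse binds Ccr8 (chr11:82115185-82116799), had 6.63 and 2.01 TPM and rested on only 117 and 44 read pairs. The remaining 16 CC ligands averaged at most 1.24 TPM, a value set by Ccl19, the other main ligand of Ccr7, with 0.80 and 1.68 TPM.

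The CX3C class has a single ligand, Cx3cl1 or fractalkine, a membrane-anchored adhesion and attractant protein, with 17.4 TPM in replicate 1 and 14.6 TPM in replicate 2 from 3049 and 3120 read pairs. Its XC counterpart Xcl1, a T cell and NK cell product, had no read pair in either library, as did Ccl1, Ccl26 and Ccl27b. A count of 0 allows up to 3 read pairs, which correspond to 0.164 and 0.132 TPM for Xcl1, 0.0591 and 0.049 TPM for Ccl1, 0.237 and 0.187 TPM for Ccl27b, and 0.680 and 0.481 TPM for the short model of Ccl26. These limits and the intervals below cover counting error only, since read pairs are not independent molecules. Ccl27b matches Ccl27a at 99.2% identity, so its count of 0 also rests on how shared reads were divided, which its limit does not cover.

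Among the conventional receptors only Cxcr4 and Cx3cr1 reached TPM 1 in both libraries. Cxcr4, the signalling receptor of Cxcl12 (chr1:128588199-128592293), had 6.94 TPM in replicate 1 and 5.14 TPM in replicate 2 from 532 and 479 read pairs. Cx3cr1, the fractalkine receptor of monocytes and macrophages (chr9:119901616-120069879), had 2.25 and 2.46 TPM from 384 and 500 read pairs. Its M21 span overlaps other genes on the same strand, among them Gorasp1, Csrnp1 and Xirp1, and no junction reads were tied to it. The macrophage and monocyte markers stood at 7 of 9 at TPM 1 in both libraries, with sums of 220.9 and 156.1 TPM.

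The other 16 conventional receptors averaged between 0.03 TPM and 0.965 TPM, and 13 of the 18 lay below 0.3 TPM. Ccr7, which guides dendritic cells and naive T cells to lymphoid tissue, had 1.5 TPM in replicate 1 and 0.43 TPM in replicate 2, from 154 and 53 read pairs. Ccr1, a receptor of monocytes and neutrophils, had 0.53 and 0.72 TPM, and Cxcr3, the receptor of interferon-induced ligands on effector T cells, had 0.63 and 0.61 TPM. These were the highest of the group by mean level. The lymphocyte receptors Ccr4, Ccr6, Ccr8, Ccr9, Cxcr5 and Cxcr6 averaged 0.06, 0.135, 0.09, 0.10, 0.045 and 0.18 TPM. Among receptors of myeloid cells, Ccr2 of inflammatory monocytes averaged 0.13 TPM, Ccr3 of eosinophils 0.10 TPM, Cxcr2 and Cxcr1 of neutrophils 0.22 and 0.045 TPM, and Xcr1 of cross-presenting dendritic cells 0.03 TPM. Markers of several of these cells were low as well. Among 10 T cell genes only Trbc1 passed TPM 1 in each library, with sums of 5.45 and 3.65 TPM and Cd8b1 and Trac at 0. None of 6 NK cell markers did so (sums of 0.28 and 0.24 TPM, Klrk1 and Gzma at 0), none of 6 neutrophil markers (0.71 and 1.26 TPM, S100a8 and Ly6g at 0), and 1 of 6 dendritic cell markers (4.79 and 3.09 TPM). Eosinophil markers gave 1 of 4 (1.90 and 1.14 TPM, Epx at 0). Markers of B and plasma cells were higher, with 4 of 8 at TPM 1 and sums of 53.8 and 59.8 TPM, mostly from the immunoglobulin genes Igkc, Igha and Ighm.

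Ccr10, a receptor of plasma cells and skin-homing T cells, had 45 read pairs (0.51 TPM) in replicate 1 and none in replicate 2, where 3 read pairs would be 0.0285 TPM. It lies wholly inside Cntnap1 on the opposite strand, which had 542 and 987 read pairs. The libraries are strand-specific, but whether the counting used strand is not given in the sources used here, so reads of these genes cannot be told apart. The same holds, among others, for Cxcr6 inside Fyco1, Ackr4 inside Acad11, Cxcl10 inside Art3, and for Cxcl16, which shares 552 bases with Zmynd15.

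The atypical receptors were the more abundant receptor group, with summed levels of 38.2 TPM in replicate 1 and 37.6 TPM in replicate 2 over 4 genes, against 14.01 and 10.4 TPM over the 18 conventional receptors. Ackr3, which scavenges Cxcl12 (chr1:90203980-90216751), had 30.6 and 25.7 TPM from 5054 and 5039 read pairs and was the third most abundant member. Its range overlapped that of Ccl27a, so their order is not resolved. Ackr1, the Duffy antigen receptor of venules and red blood cells (chr1:173331886-173333750), had 6.33 and 8.96 TPM. It shares 493 bases with Cadm3 on the same strand. Ackr4, which takes up Ccl19, Ccl21 and Ccl25 (chr9:104084157-104126933), had 0.68 and 1.78 TPM, and Ackr2, which degrades inflammatory CC ligands, had 0.61 and 1.15 TPM. Ackr1, Ackr2 and Ackr4 were all higher in replicate 2, and Ackr3 was higher in replicate 1.

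Set beside listed textbook ligands, 3 receptors reached TPM 1 together with theirs, and no listed receptor reached it without a listed ligand. Ackr1, itself at TPM 1 in both libraries, and Cxcr1 had no listed ligands and are left out here. Of the 20 receptors with listed ligands, 3 reached TPM 1 in both libraries with at least 1 of their ligands, 10 had a ligand but not the receptor at that level, and 7 had neither. The pairs were Cxcr4 with Cxcl12, Ackr3 with Cxcl12 and Cx3cr1 with Cx3cl1. In each of the 3 the ligand stood above the receptor in both libraries, with Cxcl12 at 72.5 and 70.8 TPM beside Ackr3 at 30.6 and 25.7 TPM. Ligands without their receptor included Ccl27a with Ccr10, Ccl21a with Ccr7, Cxcl16 with Cxcr6, Ccl11 with Ccr3 and Ccl2 with Ccr2. The receptors with neither were Ccr4, Ccr6, Ccr9, Cxcr2, Cxcr3, Cxcr5 and Xcr1. Which cells carried either RNA was not measured.

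**Figure D2:**
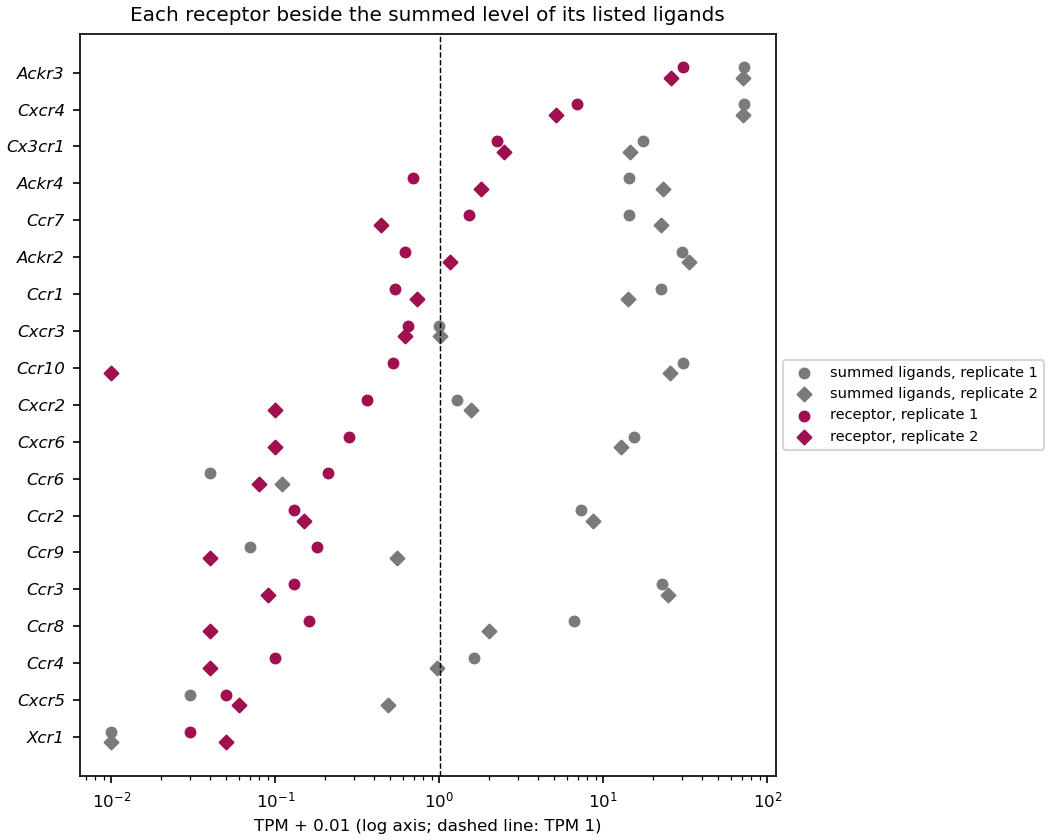
TPM of 19 receptors (purple) and the summed TPM of their listed ligands (grey) in replicate 1 (circles) and replicate 2 (diamonds), on a log axis after adding 0.01. Receptor and ligand both lie right of the TPM 1 line in both libraries in the top 3 rows, Ackr3, Cxcr4 and Cx3cr1.

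Between the libraries the leading ligands were steady and a few members moved. Ratios are log2 of scaled counts in replicate 1 over replicate 2, so a positive value is higher in replicate 1, and no p-value exists with 1 library on each side. Cxcl12 had a log2 ratio of -0.02 (95% counting interval -0.06 to 0.02), Cxcl17 -0.04 (-0.13 to 0.04), Ccl27a 0.07 (-0.09 to 0.23) and Cx3cr1 -0.09 (-0.29 to 0.10). Among the 18 members with a mean TPM of at least 1, the median ratio was 0.03, against 0.05 over all 11046 such protein-coding genes, with 9 members higher in each library, and the signs of this median and of Cxcl12 turned with the scaling. The interval left out 0 for 14 of the 18, and for 77.2% of all such genes. The common coefficient of variation between the libraries over all genes was 0.293.

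Cxcl14 and Ccl8 were higher in replicate 1 by at least 2-fold, as were 5.47% of the 11046 protein-coding genes at that level, and Ackr4 was higher in replicate 2 by that much, as were 2.13%. Cxcl14, with 2694 and 1278 read pairs, had a log2 ratio of 1.36 (1.27 to 1.46), or 2.57-fold. Ccl8 had 1.65 (1.19 to 2.23) and Ackr4, with 79 and 248 read pairs, had -1.34 (-1.75 to -0.99). Together they are 3 of 18, where 7.6% of all such genes passed 2-fold in either direction. Ccl6 stood just inside 2-fold, at 0.94 (0.69 to 1.20). Among the remaining members, Ccl5 at 0.47, Cxcr4 at 0.44, Ackr3 at 0.29, Cxcl16 at 0.27 and Cx3cl1 at 0.25 were on the side of replicate 1, and Ccl2 at -0.34, Ackr1 at -0.48, Ccl11 at -0.55, Ccl21a at -0.61 and Ccl19 at -0.89 were on the side of replicate 2.

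**Figure D3:**
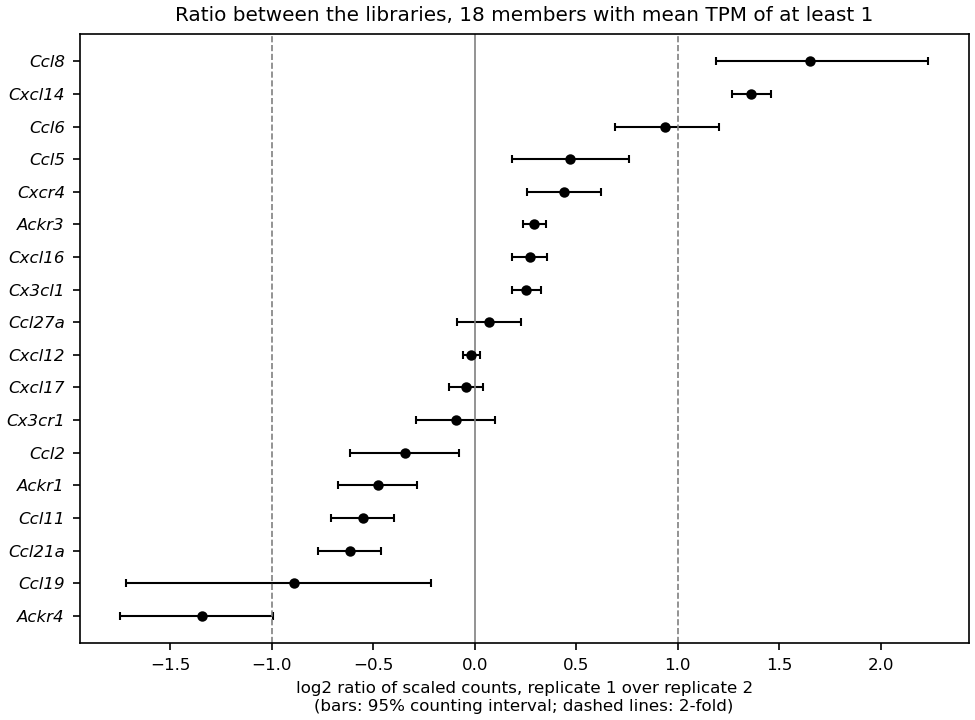
Log2 ratio of scaled counts in replicate 1 over replicate 2 for the 18 members with a mean TPM of at least 1; bars are 95% counting intervals and dashed lines mark 2-fold. Ccl8 and Cxcl14 lie right of the upper line, Ackr4 lies left of the lower one, and Cxcl12, Cxcl17, Ccl27a and Cx3cr1 have intervals that hold 0.

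Cell type markers differed between the libraries as well. Markers of red blood cells summed to 612.8 TPM in replicate 1 and 209.7 TPM in replicate 2 (4 of 4 genes at TPM 1 in both), smooth muscle markers to 6169.8 and 3742 TPM (6 of 6), mast cell markers to 90.03 and 45.7 TPM (5 of 6) and squamous forestomach markers to 2909 and 2141 TPM (6 of 6). Fibroblast markers summed to 174.9 and 259.2 TPM (6 of 6), lymphatic endothelial markers to 5.18 and 7.49 TPM (3 of 4), blood endothelial markers to 180.3 and 199.2 TPM (6 of 6) and glandular epithelial markers to 148748 and 195014 TPM (6 of 6). The sums of the first 4 lists were higher in replicate 1, as was that of the macrophage and monocyte markers (220.9 and 156.1 TPM). Those of the last 4 were higher in replicate 2. Members with a mean TPM of at least 1 split evenly, with 9 higher in each library. Within the lists, 4 of 4 red blood cell, 5 of 6 smooth muscle, 4 of 6 mast cell and 3 of 6 squamous markers had a ratio on the side of replicate 1. On the side of replicate 2 were 5 of 6 fibroblast, 3 of 4 lymphatic, 5 of 6 blood endothelial and 4 of 6 glandular markers, and most of the glandular sum was Pgc. Their part in the members' ratios was not tested. Markers of the glandular and of the squamous stomach lining were both abundant in each pool.

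A further 19 members below a mean TPM of 1 also differed by at least 2-fold, 12 of them higher in replicate 1 and 7 in replicate 2, and 14 of the 19 had fewer than 10 read pairs in at least 1 library. Ccr7 was the best counted of them, with a log2 ratio of 1.79 (1.37 to 2.31). Cxcr2 followed with 42 and 13 read pairs and a ratio of 1.82 (1.05 to 3.0). Cxcl10, singled out after its values were seen, shows that TPM and counts can part. It had 0.93 and 0.88 TPM but 37 and 15 read pairs, because its estimated effective length was 685.9 bases in replicate 1 and 249.3 bases in replicate 2.

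Most abundant members came from transcripts annotated as protein-coding, with Ccl6 and Ccl27a as exceptions. For Ccl6, 9.97% of TPM in replicate 1 and 15.5% in replicate 2 lay on coding transcripts, and 90.03% and 83.1% on Ccl6-202, a model of 776 bases annotated as a retained intron. For Ccl27a the coding share was 31.4% and 38.1%, held by 5 of its 12 expressed models. Read from coding transcripts alone, Ccl6 would stand on 63.0 and 58.6 read pairs and Ccl27a on 139.3 and 182.3. Ccl6-201, the only coding model of Ccl6, had 0.88 TPM in replicate 1 and 0.68 TPM in replicate 2. By that model alone Ccl6 would not reach TPM 1, whereas the counts of members at TPM 1 use all models of a gene. Fewer than 50% of TPM on coding transcripts in both libraries was found for 13.2% of the 10499 protein-coding genes at TPM 1. The other 14 members had at least 89.2% of TPM on coding transcripts in replicate 1 and at least 92.0% in replicate 2, both values from Cxcl16.

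**Figure D4:**
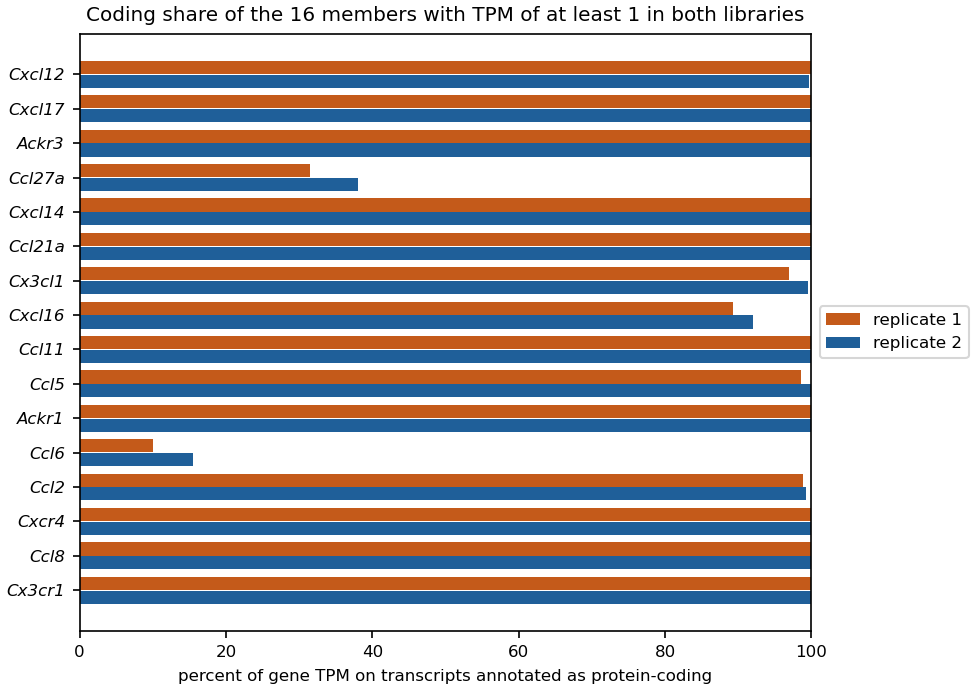
Percent of gene TPM on transcripts annotated as protein-coding, in replicate 1 (orange) and replicate 2 (blue), for the 16 members at TPM 1 in both libraries, the most abundant at the top. Ccl6 (9.97 and 15.5%) and Ccl27a (31.4 and 38.1%) stand apart from the rest.

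The splice junction table gives a second view of these models. Its read column has no name and no replicate is given for it, so its reads were taken as summed over both libraries. Its positions are on mm9, so members were tied to it only by the lengths and spacing of at least 2 introns. Of 52 members with that many introns, 25 were tied, among them 14 of the 16 at TPM 1. The Ccl6 introns of 342 and 363 bases, which Ccl6-202 shares with the coding transcript, had 39 and 282 junction reads. The first intron, of 3061 bases, which Ccl6-202 lacks, had 5. For Ccl27a the introns nearest the 3′ end, of 1161 and 189 bases, had 188 and 200 reads, and the one of 296 bases nearest the 5′ end had 1. Cxcr4 and Ackr1 had 7 and 14 junction reads in all, few beside their counts.

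Cxcl12 showed how the models differ at the end of the protein. Cxcl12-202 held 90.5% of its TPM in replicate 1 and 85.1% in replicate 2, Cxcl12-201 held 8.76% and 10.8%, and Cxcl12-203 held 0.69% and 3.73%. All 3 share 267 coding bases, stop codon aside, after which Cxcl12-202 ends, Cxcl12-201 adds 90 bases rich in lysine and arginine codons, and Cxcl12-203 adds 12. The last 21 shared bases are printed in lower case and the bases of each longer form in capitals.
Cxcl12-202: ctggagaaagctttaaacaag
Cxcl12-201: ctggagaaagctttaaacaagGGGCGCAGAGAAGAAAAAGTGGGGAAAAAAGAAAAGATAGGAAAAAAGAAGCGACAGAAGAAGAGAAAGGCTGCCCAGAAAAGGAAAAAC
Cxcl12-203: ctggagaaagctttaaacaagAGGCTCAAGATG
The junction table had 4923 reads over the first intron and 269 over the second, which all 3 use. None were tied to the introns of 2507 and 5004 bases that lead to the own exons of Cxcl12-201 and Cxcl12-203. The reads assigned to these longer forms, 1992 and 2861 for Cxcl12-201, therefore have no tied junction read to the exon that tells them apart. A tie needs equal intron length and spacing on mm9 and mm10, so the junction table may still hold such reads. The levels of the longer forms are model estimates.

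For Cxcl17 the tied junction reads did not match the last intron of its model. The tie sets lengths on mm9 against models on mm10, so a difference of 1 base between the assemblies would look the same. Its first introns had 636 and 771 junction reads, the last intron of the only model in the deposited tables, of 1703 bases, had 0, and an intron 1 base longer, used by the M21 transcript Cxcl17-202, had 60. Cxcl17-202 itself is not in the deposited tables, which hold 1 transcript for the gene.

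Near-identical copies share the reads of Ccl21a. Ccl21b and the predicted genes Gm10591, Gm13304 and Gm21541, all on chromosome 4, match its 399 coding bases at 99.5% identity and differ from it by T84A and C194T, counted from the first base of the start codon with the base of Ccl21a given first. T84A falls on the third base of codon 28 and C194T on the second base of codon 65. Coding bases 72 to 206 of Ccl21a and of Ccl21b (chr4:42255767-42256432, plus strand) are printed with those positions in capitals, since they are all that tells the coding reads apart.
Ccl21a: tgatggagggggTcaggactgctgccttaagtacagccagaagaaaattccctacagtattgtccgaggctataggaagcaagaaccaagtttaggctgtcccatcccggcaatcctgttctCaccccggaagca
Ccl21b: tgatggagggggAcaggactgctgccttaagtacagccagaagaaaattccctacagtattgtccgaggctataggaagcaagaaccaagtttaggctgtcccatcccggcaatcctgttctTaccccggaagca
Ccl21a held 518.4 expected read pairs in replicate 1 and 969.1 in replicate 2, and Gm21541 held 96.2 and 198.7. Ccl21b and Gm10591 held the same values, 0.21 and 20.6 each, and Gm13304 held 0 in both. The posterior SD of the Ccl21b count was 66.1% of the count in replicate 2, so its level is uncertain. In the junction table, introns of 88 and 94 bases that fit Ccl21b had 317 and 127 reads, many beside its expected read pairs. The fit used lengths and spacing without positions, and the predicted genes match Ccl21b at 100% identity on the same strand. These junction reads therefore cannot be assigned to Ccl21b rather than to those copies. None could be tied to Ccl21a, which found more than 1 placement. As a group the 5 genes had 615 and 1209 read pairs and 16.03 and 27.9 TPM, of which Ccl21a took 84.3% and 80.2% of the read pairs. The gene was higher in replicate 2 both alone and as a group.

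The Ccl27 and Ccl19 genes have copies too. Ccl27b matches Ccl27a at 99.2% over its coding length and was assigned no reads, and the posterior SD of the Ccl27a count was 2.65% and 1.78%. The predicted gene Gm2564 carries the Ccl19 coding sequence at 100% identity and had 1.16 and 19.9 read pairs, beside 22.8 and 54.2 for Ccl19 itself, whose posterior SD was 3.24% and 2.31% of the count. The pseudogenes Ccl19-ps1 and Gm12407 had 7 and 3 read pairs in replicate 2 and none in replicate 1.

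Some gene clusters were low throughout and others mixed high and low members. With gaps of at most 500 kb, 31 members fell into 6 clusters of at least 3, and 8 of the 31 reached TPM 1 in both libraries, as did 8 of the 28 outside. Every one of the 7 receptors in the cluster on chromosome 9 lay below TPM 1, with summed levels of 1.35 TPM in replicate 1 and 1.38 TPM in replicate 2. The 5 CXC ligands at chr5:90759360-90905938 summed to 1.32 and 1.54 TPM, and all 10 members on chromosome 5 to 3.06 and 3.59 TPM. On chromosome 11, by contrast, the CC ligands at chr11:82035571-82305690 ran from Ccl1 with no reads to Ccl11 at 13.3 TPM on average, and those at chr11:83525778-83664683 from Ccl9 at 0.485 TPM to Ccl5 at 9.85 TPM. On chromosome 8, Cx3cl1 at 16.035 TPM lies between Ccl22 at 0.89 TPM and Ccl17 at 0.395 TPM. The most abundant members, Cxcl12 and Cxcl17, lie outside all clusters.

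**Figure D5:**
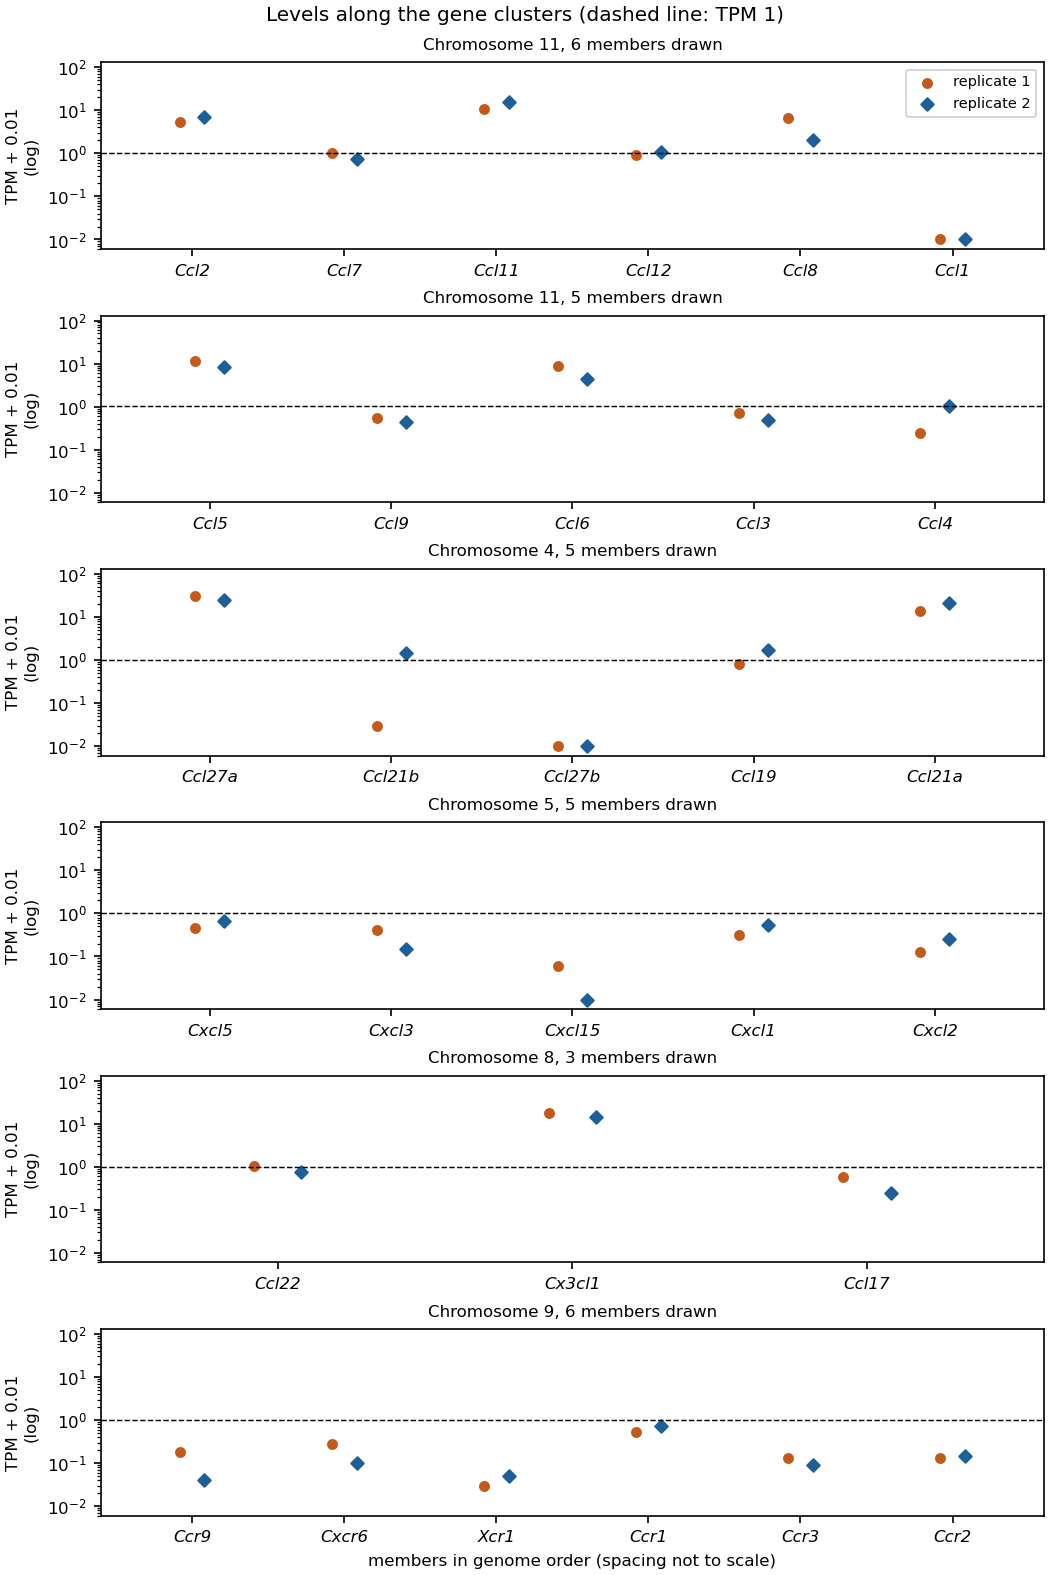
TPM along the 6 gene clusters in genome order, replicate 1 (circles) left of replicate 2 (diamonds), on log axes after adding 0.01; distances are not to scale. The 6 receptors drawn on chromosome 9 and all 5 ligands on chromosome 5 lie below the TPM 1 line, while the clusters on chromosomes 4, 8 and 11 mix high and low members.

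Cxcl1, Cxcl2 and Cxcl3, low CXC ligands on chromosome 5, share a promoter feature, and Cxcl9, Cxcl10, Cxcl13 and Cxcl15 of that chromosome lack it. Cxcl5, of the same cluster as Cxcl1, was not among the matches, and whether its promoter was found is not given here. Promoters, taken from RefSeq on GRCm38.p6 as 250 bases before to 50 after each gene's start, were found for 45 of the 59 members and searched on both strands. The letters GGGA, any base and TTTCC in a row, a form of the NF-kB site, were in 4 of the 45 (8.89%), namely Cxcl1, Cxcl2, Cxcl3 and Ccr3, and in 0.503% of 16317 protein-coding genes. None of the 11 members at TPM 1 with a promoter held it, against 4 of the 34 other members. With 0.503% of all genes holding it, a set of 11 would rarely show a match, so this contrast cannot link the letters to level. Cxcl1, Cxcl2 and Cxcl3 lie in 1 cluster, and the coding bases of Cxcl2 match those of Cxcl3 at 90.5% identity. Their matches may therefore not be independent of each other. The TATA box letters TATAAA were in 14 of 45 (31.1%), against 14.1% of all, and GAAA, any 2 bases and GAAA in a row, letters of an interferon response element, in 3 of 45 (6.67%), against 4.0%. The windows of 50 bases around the match in Cxcl1 (chr5:90891154-90891203), Cxcl2 (chr5:90903782-90903831) and Cxcl3 (chr5:90786008-90786057), all on the plus strand, show the match in capitals.
Cxcl1: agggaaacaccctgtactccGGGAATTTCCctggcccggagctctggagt
Cxcl2: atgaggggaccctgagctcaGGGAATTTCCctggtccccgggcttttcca
Cxcl3: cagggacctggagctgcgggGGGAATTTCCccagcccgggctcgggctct
The matches end 62, 88 and 64 bases before the start and read in the direction of transcription. A match describes letters only, and binding was not measured. In these libraries the 3 genes had 13 and 27, 6 and 14, and 19 and 8 read pairs in replicate 1 and replicate 2.

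Listed genes that work beside the family were mostly detected. Of 51 listed partners outside it, 37 (72.5%) reached TPM 1 in both libraries, with a median of 5.69 TPM, against 48.9% and 1.15 TPM over all protein-coding genes. Of 9 G protein subunits 8 did so, led by Gnb2 at 676.1 ± 171 TPM (SD, n = 2) and Gng5 at 465.5 ± 144 TPM, with the inhibitory subunit gene Gnai2 at 139.3 ± 18.2 TPM. Of 6 receptor kinases and arrestins 4 did so, among them Grk2 at 57.7 ± 11.7 TPM and Arrb2 at 18.3 ± 4.66 TPM, and of 14 genes that couple receptors to movement 10 did so, led by Rac1 at 50.1 ± 9.18 TPM. RGS proteins, which shorten G protein signals, gave 2 of 8, Rgs3 at 12.1 ± 1.52 TPM and Rgs10 at 7.71 ± 2.06 TPM. The proteases that shed Cx3cl1 and Cxcl16, Adam10 and Adam17, had 19.9 ± 10.3 and 5.69 ± 1.39 TPM. Many of these genes serve other receptors too, and the lists were chosen with earlier results of these data known. The share at TPM 1 therefore describes the lists and does not measure the chemokine pathway. Of chemokines with other names, the 3 listed were detected, with Pf4 and Ppbp of platelets at 10.8 ± 1.27 and 1.33 ± 0.304 TPM, and Mif, a cytokine with chemokine-like activity, at 1139 ± 413 TPM, above every member.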

How the data were processed

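Stomach RNA was measured in 2 libraries of 1 group. The authors deposited expected counts, TPM and FPKM per gene and per transcript, with a posterior mean TPM and a posterior SD of the count, on mm10 with GENCODE M4 models, per the README and the file headers. The columns are named as RSEM names them, and no source used here gives the aligner or a quantifier version. The authors also deposited each transcript as a percentage of its gene; the shares here come from transcript TPM instead. A deposited junction table on mm9 holds read counts per junction, and the deposited contig table was not used. Spike-ins took 1.14% and 1.12% of read pairs and phiX174 took 0.252% and 0.185%, and both stayed out of library sizes. Symbols came from GENCODE M21 by unversioned ID (42462 of 43346 genes matched).

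Expected counts were rounded, scaled by TMM in edgeR 4.0.16 and compared with a prior count of 2; intervals are exact conditional binomial (Clopper-Pearson) at 95%. The spread is edgeR's common dispersion over 15234 genes, with DESeq2 1.42.0 as alternative. The ratio procedure was tested on simulated data. Copies were found with blastn 2.17.0 at 90% identity or more over 90% of the coding length. Text names members at TPM 1 in both libraries, all receptors, members past 2-fold, members with a posterior SD over 10%, members without reads, and up to 4 genes per partner list. The members and lists were chosen with earlier results of these data known. Alternatives were FPKM, posterior mean TPM, other totals, thresholds, scalings, prior counts and each library left out. 1 receptor of the family is counted in the totals but its values are not reported here.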

Additional observations from a re-analysis of the deposited data

How the results depend on the processing

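No paired analysis was possible because the design has 1 group. No ratio past 2-fold changed direction. The median member level (0.595 TPM) was 0.655 in FPKM, 0.63 by posterior mean TPM, 0.603 with TPM rescaled to mouse genes, and 0.942 when Clps and Pgc, the dominant genes, were dropped from that total. With 1 library left out it ran from 0.53 to 0.54. Members counted as detected numbered 26 at TPM 0.5 and 37 at 10 read pairs or more, against 16, and 19 to 22 with 1 library left out. Receptors numbered 8 at TPM 0.5, against 4. The median replicate ratio was 0.14 on the log2 scale of TPM with a pseudocount of 1, against 0.03, and 0.05 with DESeq2 size factors. It changed sign, to -0.0062 by library size alone and to -0.03 by spike-ins. With the pseudocount it lay above the median of all protein-coding genes (0.03), and below it in each other scaling. The ratio of Cxcl12, -0.02, also changed sign, to 0.0067 with DESeq2 size factors and 0.03 on TPM. Members past 2-fold numbered 7 at a mean TPM of at least 0.5, 1 at a mean TPM of at least 5 and 22 with no filter, against 3. Cxcl14, Ccl8 and Ackr4 stayed past 2-fold under each count scaling and prior count tried, and Ackr4 did not with TPM and a pseudocount of 1. The spread was 0.179 by DESeq2, against 0.293. Cxcl12 held 31.6% of the family by expected counts, against 21.5% by TPM, where length is corrected. Of single gene levels 47 of 64 and of single gene ratios 102 of 108 moved by less than their error. Depth limits the 22 members with fewer than 10 read pairs in at least 1 library.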
